A study of Mus musculus with 12 samples.

Results

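The genes that mark cardiac macrophages were followed in whole-heart RNA from mice with altered Lemd2, which encodes a protein of the inner nuclear membrane. The 10 members, Cd68, Csf1r, Lyz2, Cd163, Mrc1, Lyve1, Timd4, Fcgr1, Trem2 and Ptprc, were chosen by symbol from the 24062 genes of the deposited count table, without use of their values, and each had a row there. Adult hearts came from 2-month-old mice, 3 WT and 3 KI/KI. KI/KI mice carry the Lemd2 c.T38>G change, which replaces leucine 13 by arginine in every tissue, on both alleles, and their WT littermates carry no engineered allele. P1 hearts were collected at postnatal day 1 from 3 floxed mice, which have loxP sites on either side of Lemd2 exon 1 and no Cre, and from 3 cKO mice, in which Myh6-Cre removes that exon. Myh6 drives Cre in cardiomyocytes, so the Lemd2 gene of the macrophages is not targeted in cKO hearts. Both lines were made by CRISPR in B6C3F1 zygotes and bred to C57BL/6N mice. Each library was 1 mouse, and p-values measure the spread between 3 mice.

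Macrophages of the heart clear debris and dying cells and live among the cardiomyocytes and vessels. Those seeded before birth largely maintain themselves and are known for Timd4, Lyve1, Folr2, Cd163 and Mrc1, whereas cells derived from blood monocytes carry Ccr2 and, while still monocytes, Ly6c2 and Plac8. Survival of the lineage depends on the receptor Csf1r and its ligands Csf1 and Il34, and its identity on the transcription factor PU.1, the product of Spi1. Several of the markers are shared with other cells. Lyz2 is also made by neutrophils, Lyve1 by lymphatic endothelium, Mrc1 by some endothelial cells and Ptprc by leukocytes in general.

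The 250 bases upstream of the annotated transcription start are shown for Cd68, Lyz2 and Trem2, the members that rose in cKO hearts, and for Timd4, the member that was nearly silent at P1. They are RefSeq sequences on build GRCm38.p6, written 5′ to 3′ on the strand of the gene, and capitals mark GAGGAA or its reverse complement TTCCTC, the core letters of a PU.1 site.
Cd68, chr11:69666171-69666420, minus strand: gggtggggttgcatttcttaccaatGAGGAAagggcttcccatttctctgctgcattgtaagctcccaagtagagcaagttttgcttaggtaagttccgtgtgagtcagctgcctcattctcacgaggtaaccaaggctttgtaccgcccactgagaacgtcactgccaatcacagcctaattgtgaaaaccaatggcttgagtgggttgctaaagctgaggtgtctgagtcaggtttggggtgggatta
Lyz2, chr10:117282273-117282522, minus strand: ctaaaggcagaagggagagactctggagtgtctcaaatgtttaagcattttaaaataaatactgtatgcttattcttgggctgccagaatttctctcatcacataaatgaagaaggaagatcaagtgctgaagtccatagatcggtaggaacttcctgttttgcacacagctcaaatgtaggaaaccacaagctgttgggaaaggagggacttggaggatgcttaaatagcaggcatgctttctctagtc
Trem2, chr17:48346151-48346400, plus strand: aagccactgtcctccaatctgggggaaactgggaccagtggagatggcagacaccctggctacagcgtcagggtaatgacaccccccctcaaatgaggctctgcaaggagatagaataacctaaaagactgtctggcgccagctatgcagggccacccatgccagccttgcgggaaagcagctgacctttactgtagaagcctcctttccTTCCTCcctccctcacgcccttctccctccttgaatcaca
Timd4, chr11:46810549-46810798, plus strand: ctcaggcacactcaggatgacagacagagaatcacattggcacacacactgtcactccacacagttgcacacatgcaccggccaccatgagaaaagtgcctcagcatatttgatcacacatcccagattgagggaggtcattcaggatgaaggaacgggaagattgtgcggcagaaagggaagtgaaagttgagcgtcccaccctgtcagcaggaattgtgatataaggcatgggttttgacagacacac
The letters lie 225 bases upstream of the start of Cd68 and 40 bases upstream of that of Trem2, and they are not in the windows of Lyz2 and Timd4. RefSeq held 9 upstream windows for 8 of the members, and 5 of the 9 (55.6%) had the motif on either strand, those of Fcgr1, Mrc1 and 1 of 2 starts of Ptprc besides Cd68 and Trem2. Among all 32851 windows of the same length 23.3% had it. A match describes letters, and binding of PU.1 was not measured.

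Library totals ran from 37063669 to 44789753 counts, and 3 counts, taken as the floor, corresponded to between 0.0599 and 0.0965 CPM (counts scaled to library size, normalized by edgeR's TMM method over the 12 libraries), a limit that covers counting error only. Lemd2 itself was at 32.0 to 34.8 CPM in WT hearts and at 24.8 to 25.6 CPM in KI/KI hearts. Floxed hearts had 24.3 to 25.4 CPM of it, and cKO replicates 4, 5 and 6 had 6.59, 13.1 and 11.3 CPM (edgeR adjusted p = 0.0142, with no call without floxed replicate 1 or 2). The cKO replicate 4 library was the only one with Xist, at 612 CPM against 2.02 CPM or less elsewhere, and with the Y-linked Ddx3y below the floor, so it came from the single female heart. Cardiomyocyte genes were abundant in each library, with a summed level of Myh6, Tnnt2, Actn2, Tnni3, Ryr2 and Pln of at least 24700 CPM, and the macrophage signal was small beside it. The 10 markers together made up 263 to 384 CPM in WT, 403 to 464 CPM in KI/KI, 126 to 162 CPM in floxed and 125 to 276 CPM in cKO hearts. In bulk tissue, more macrophages and more RNA per macrophage cannot be told apart.

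Levels were compared between genes per kilobase of the longest coding transcript, as RPKM. In WT hearts Lyz2, the lysozyme of myeloid cells, led with 78.6 ± 22.8 RPKM (mean ± SD, n = 3). The hyaluronan receptor Lyve1, Csf1r and the mannose receptor Mrc1 followed at 15.2 ± 4.87, 13.1 ± 3.32 and 12.4 ± 2.61 RPKM, with ranges that overlapped from each to the next. Below them stood the hemoglobin-haptoglobin receptor Cd163 at 7.56 ± 1.74 RPKM and the lysosomal glycoprotein Cd68 at 7.08 ± 1.31 RPKM, which also overlapped. The leukocyte phosphatase Ptprc (2.56 RPKM), the phosphatidylserine receptor Timd4 (1.38 RPKM), the lipid receptor Trem2 (1.14 RPKM) and the high-affinity IgG receptor Fcgr1 (0.755 RPKM) were lowest, and among these only Timd4 and Trem2 overlapped as neighbours. In KI/KI hearts Cd68 stood above Cd163, at 10.5 ± 1.21 against 6.91 ± 1.17 RPKM, with ranges that did not overlap. At P1 Lyz2 no longer stood apart in floxed hearts, where it averaged 14.5 ± 3.23 RPKM and overlapped Lyve1 at 13.9 ± 3.66 RPKM. Timd4 was last there at 0.13 ± 0.066 RPKM and also last in cKO hearts at 0.0786 ± 0.0385 RPKM, below its neighbour without overlap in both groups.

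Lyz2 and Csf1r share sequence with another gene. Lyz2, on chromosome 10 from 117277331 to 117282321 (GRCm38), shared 5.96% of its 75-base stretches with its neighbour Lyz1, which was at 0.0729 to 3.10 CPM in these hearts against 14.3 CPM or more for Lyz2. Csf1r, on chromosome 18 from 61100598 to 61132149, overlaps 873 exonic bases of the antisense gene Hmgxb3, and 13.9% of its 75-base stretches lie there. Whether the counting used strand was not stated, so Csf1r reads from that stretch are uncertain. The other 8 members shared none with any annotated transcript of another gene.

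**Figure D1:**
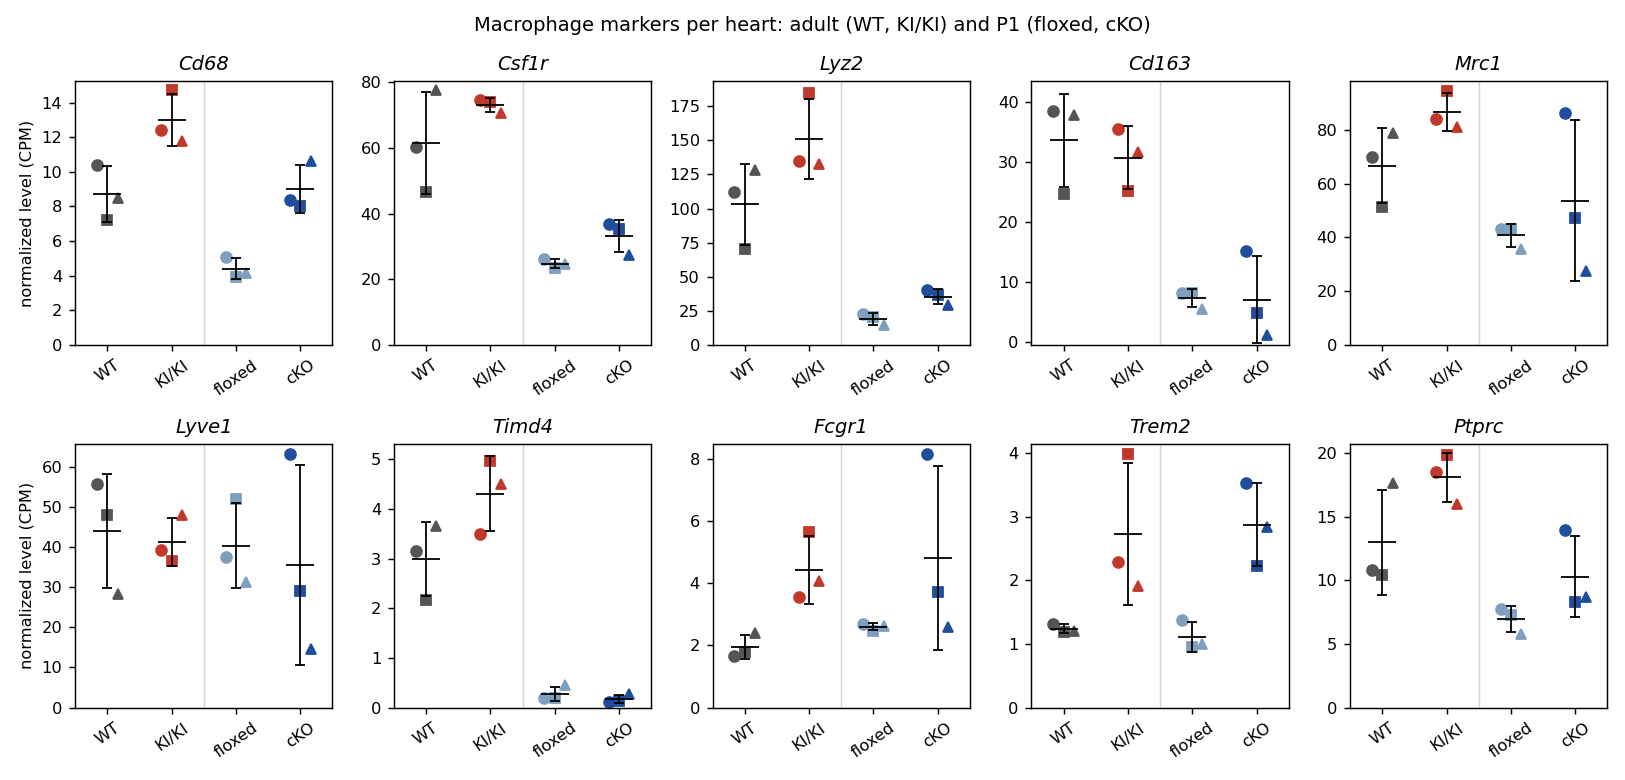
Normalized levels (CPM, y axis) of the 10 markers in each of the 12 hearts. Points are single hearts, with circle, square and triangle for replicates 1, 2 and 3 or 4, 5 and 6, and bars give the mean ± SD of 3 hearts (the bar of Cd163 in cKO runs below 0). Cd163 in cKO hearts spreads from 1.26 to 15.2 CPM, while Timd4 lies below 0.5 CPM in the 6 P1 hearts.

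In KI/KI hearts 8 of the 10 markers had a higher fitted level than in WT hearts, and none passed an adjusted p of 0.05 with edgeR's quasi-likelihood test. Cd68, Fcgr1 and Trem2 had the smallest unadjusted p of the 10 (edgeR, 0.00208 to 0.00946), and Cd163 and Lyve1 had fitted differences near 0. Of the 14592 genes tested, 0% passed (lowest adjusted p 0.101). At an unadjusted p under 0.05, 3 markers were higher, Cd68, Fcgr1 and Trem2, where 8.92% of genes tested were. The same 3 passed DESeq2's adjusted p, which called 2.16% of genes higher, and limma-voom called none of the 10 and 0% of genes. In 5 of 10 markers, the 3 KI/KI hearts lay above the 3 WT hearts without overlap, and in none below, where 11.4% and 10.4% of genes did. Summed cardiomyocyte genes were at 65800 to 73800 CPM in WT and 47100 to 65100 CPM in KI/KI hearts, without overlap. KI/KI replicate 5, with the lowest of these sums, was the highest of its group in 7 of the 10 markers, and the part of this in the marker values was not tested.

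Cd68, whose product sits in the lysosomes of macrophages, was at 10.4, 7.21 and 8.51 CPM in WT hearts and at 12.4, 14.7 and 11.8 CPM in KI/KI hearts. The lowest KI/KI heart lay above the highest WT heart. Cd68 thus gave a log2 fold change of 0.58 ± 0.15 (SE), at an edgeR adjusted p of 0.231 and a DESeq2 adjusted p of 0.0417. Fcgr1 stood at 1.67, 1.80 and 2.39 CPM in WT hearts against 3.55, 5.66 and 4.08 CPM in KI/KI hearts, again without overlap. Its log2 fold change of 1.18 ± 0.25 (SE) was the largest among the markers, with an edgeR adjusted p of 0.193 and a DESeq2 adjusted p of 0.00324. Trem2, a receptor for lipids and apoptotic debris, had the tightest WT group, at 1.32, 1.19 and 1.20 CPM, and read 2.29, 3.99 and 1.91 CPM in KI/KI hearts. These are 39 to 44 counts in a WT library and 68 to 165 in a KI/KI library. The log2 fold change of Trem2 was 1.17 ± 0.33 (SE), at an edgeR adjusted p of 0.236 and a DESeq2 adjusted p of 0.0422. Leaving out each heart in turn kept the 3 fold changes between 0.46 and 1.37, and none was then called by edgeR.

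Lyz2 ran from 70.0 to 128 CPM in WT hearts and from 133 to 185 CPM in KI/KI hearts, with a log2 fold change of 0.55 ± 0.24 (SE). Mrc1, at 69.8, 51.4 and 78.9 CPM in WT hearts, read 84.0, 94.6 and 81.1 CPM in KI/KI hearts, with a log2 fold change of 0.38 ± 0.16 (SE). In both genes WT replicate 2 was the lowest of the 6 hearts and the groups did not overlap. That WT heart was the lowest of its group in 8 of the 10 markers. Csf1r overlapped between groups, with 60.3, 46.5 and 77.7 CPM in WT hearts and 74.7, 73.9 and 70.7 CPM in KI/KI hearts. The highest Csf1r level was in WT replicate 3, and the log2 fold change was 0.25 ± 0.18 (SE). Ptprc likewise had WT replicate 3, at 17.7 CPM, inside the KI/KI range of 16 to 19.9 CPM, and its log2 fold change was 0.48 ± 0.22 (SE). That WT library also held the highest lung and adipocyte transcripts of the adult hearts, 101 CPM of summed lung genes and 80.0 CPM of summed adipocyte genes, against 35.5 CPM and 38.3 CPM at most in the other 5. Their part in the leukocyte values was not tested.

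Markers of resident macrophages did not move as one in KI/KI hearts, since Cd163 and Lyve1 had fitted differences below 0 and Mrc1 and Timd4 above 0, and none was called by edgeR. Cd163 was at 38.4, 24.7 and 37.7 CPM in WT hearts and at 35.4, 25.1 and 31.6 CPM in KI/KI hearts, so that the KI/KI hearts lay within the WT range. Its log2 fold change was -0.13 ± 0.20 (SE). Lyve1 was at 55.6, 48.0 and 28.3 CPM in WT hearts against 39.2, 36.4 and 47.9 CPM in KI/KI hearts, at a log2 fold change of -0.09 ± 0.24 (SE). Timd4, which binds phosphatidylserine on dying cells, read 3.15, 2.17 and 3.65 CPM in WT hearts and 3.49, 4.96 and 4.50 CPM in KI/KI hearts. One WT heart lay inside the Timd4 range of the KI/KI hearts, and the log2 fold change was 0.53 ± 0.23 (SE).

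**Figure D2:**
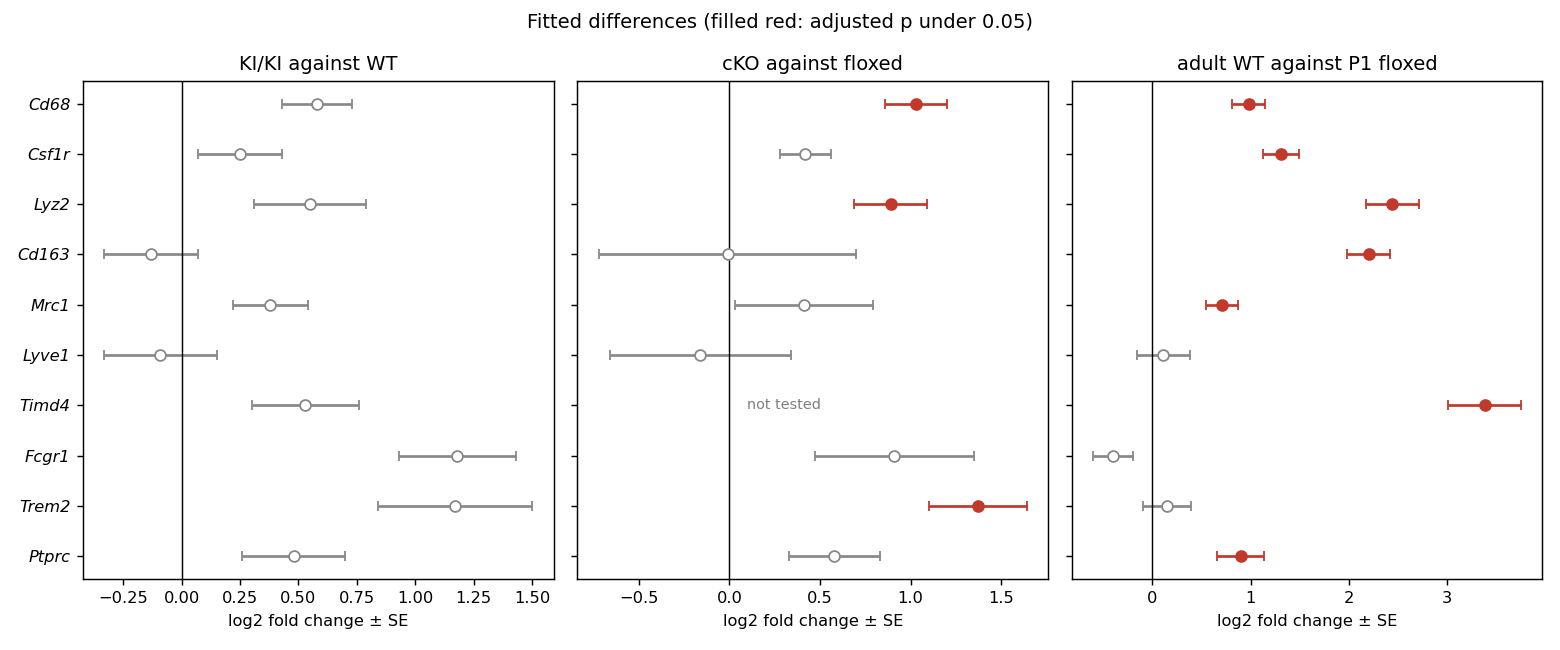
Fitted log2 fold changes (x axis) with their standard errors for the 10 markers (y axis) in 3 comparisons, from edgeR with 3 hearts a group. Filled red points passed an adjusted p of 0.05, which 0 of 10 markers did in KI/KI, 3 of 9 tested in cKO and 7 of 10 in adult WT against P1 floxed hearts.

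In cKO hearts Cd68, Lyz2 and Trem2 rose against floxed hearts, by 2.04-, 1.85- and 2.59-fold. These were 3 of the 9 markers tested, where 9.32% of the 15317 genes tested were called higher. No marker was called lower, a direction in which 7.57% of genes were called. Groups did not overlap, with cKO higher, in 5 of the 9, which adds Csf1r and Ptprc, against 19.9% of genes. The split of 1427 genes higher and 1160 lower was 1117 and 1440 with total counts only, and 1193 and 1465 with upper-quartile scaling, and the same 3 markers were called under both. Timd4 was too low to be tested.

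The Cd68 level was 5.10, 3.95 and 4.14 CPM in floxed hearts and 8.40, 8.04 and 10.6 CPM in cKO hearts, a log2 fold change of 1.03 ± 0.17 (SE, edgeR adjusted p = 0.0123). Each cKO heart exceeded each floxed heart. Lyz2 read 22.6, 20.2 and 14.3 CPM in floxed and 40.0, 36.3 and 29.1 CPM in cKO hearts, a log2 fold change of 0.89 ± 0.20 (SE, edgeR adjusted p = 0.0305). For Trem2 the floxed hearts were at 1.38, 0.956 and 1.00 CPM and the cKO hearts at 3.53, 2.23 and 2.84 CPM. Its log2 fold change was 1.37 ± 0.27 (SE, edgeR adjusted p = 0.0205). DESeq2 and limma-voom also called Cd68, Lyz2 and Trem2. These calls depended on single libraries. Without floxed replicate 1 or without floxed replicate 2 no marker was called. Without floxed replicate 3 there was 1, without cKO replicate 4 or 5 there were 2, and without cKO replicate 6 there were 5. Over all genes the calls then ran from 160 to 3463 against 2587 with the 6 hearts, and the 3 fold changes stayed between 0.71 and 1.55 on the log2 scale.

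Csf1r, the receptor on which macrophage survival depends, was at 26.3, 23.4 and 24.8 CPM in the floxed hearts and at 36.7, 35.3 and 27.5 CPM in cKO hearts. The groups did not overlap, and the log2 fold change of 0.42 ± 0.14 (SE) had an edgeR adjusted p of 0.0775 and a DESeq2 adjusted p of 0.0323. Ptprc was at 7.79, 7.32 and 5.78 CPM in floxed and at 14.0, 8.27 and 8.70 CPM in cKO hearts. Ptprc gave 0.58 ± 0.25 (SE) on the log2 scale, and 0.27 without cKO replicate 4.

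The remaining members spread widely among the 3 cKO hearts. Cd163 was at 8.17, 8.19 and 5.54 CPM in the floxed hearts and at 15.2, 4.81 and 1.26 CPM in cKO replicates 4, 5 and 6, a range of 12-fold among cKO hearts. Mrc1 was at 43.2, 43.1 and 35.7 CPM in the floxed hearts and at 86.4, 47.2 and 27.6 CPM in the same cKO order. For Lyve1 the floxed values were 37.4, 52.0 and 31.4 CPM and the cKO values 63.1, 29.1 and 14.6 CPM. In all 3 genes cKO replicate 4 lay above the floxed hearts and cKO replicate 6 below them. Fcgr1 shared the pattern at its upper end, with 2.69, 2.48 and 2.64 CPM in floxed hearts and 8.16, 3.71 and 2.58 CPM in cKO hearts. Cd68 differed from it, since its highest level was in cKO replicate 6.

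The fitted differences of these genes therefore depended on which cKO heart was left out. Cd163 had a log2 fold change of -0.01 ± 0.71 (SE) with the 3 cKO hearts, -1.24 without replicate 4 and 0.46 without replicate 6. Mrc1 had 0.41 ± 0.38 (SE), -0.13 without replicate 4 and 0.72 without replicate 6. Lyve1 had -0.16 ± 0.50 (SE), -0.89 without replicate 4 and 0.20 without replicate 6. Fcgr1 had 0.91 ± 0.44 (SE), 0.27 without replicate 4 and 1.20 without replicate 6. None of the 4 was called with the 6 hearts (edgeR adjusted p from 0.185 to 0.996), and Fcgr1 was called without cKO replicate 6 (edgeR adjusted p = 0.0498). The median coefficient of variation of the 10 markers was 39.9% among cKO hearts, against 13.3% for 15729 genes. It was 17.9% among floxed hearts, against 10.4%. The highest level of the group was in cKO replicate 4 for 8 of the 10 markers and the lowest in cKO replicate 6 for 6.

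Other values also differed among the cKO hearts, and replicate 4 was not always the one furthest from the floxed hearts. Replicate 4 was the female heart and had the lowest Lemd2 level. It held 19.7 CPM of summed lung genes against 0.896 and 3.52 CPM in the other cKO hearts, although 2 floxed hearts held 28.6 and 44.9 CPM. Mast cell genes (Cpa3, Cma1, Mcpt4, Tpsb2 and Fcer1a), which mark another resident leukocyte, summed to 23.3, 13.4 and 7.19 CPM in cKO replicates 4, 5 and 6 and to between 23.9 and 27.4 CPM in floxed hearts. Mmrn1, a marker of lymphatic endothelium that is not a macrophage gene, was at 36.0, 16.9 and 8.46 CPM in those cKO hearts and at 19.9, 21.9 and 10.6 CPM in floxed hearts. The other lymphatic genes detected did not all share that order. Reln and Pdpn also fell from cKO replicate 4 to 6, but Flt4 rose, at 44.3, 47.9 and 51.7 CPM. Prox1 was highest in cKO replicate 5. The summed lymphatic genes were at 115 to 154 CPM in cKO and 150 to 160 CPM in floxed hearts. Sex, lung content and the share of other cells cannot be told apart in a single heart, and their part in the spread was not tested.

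**Figure D3:**
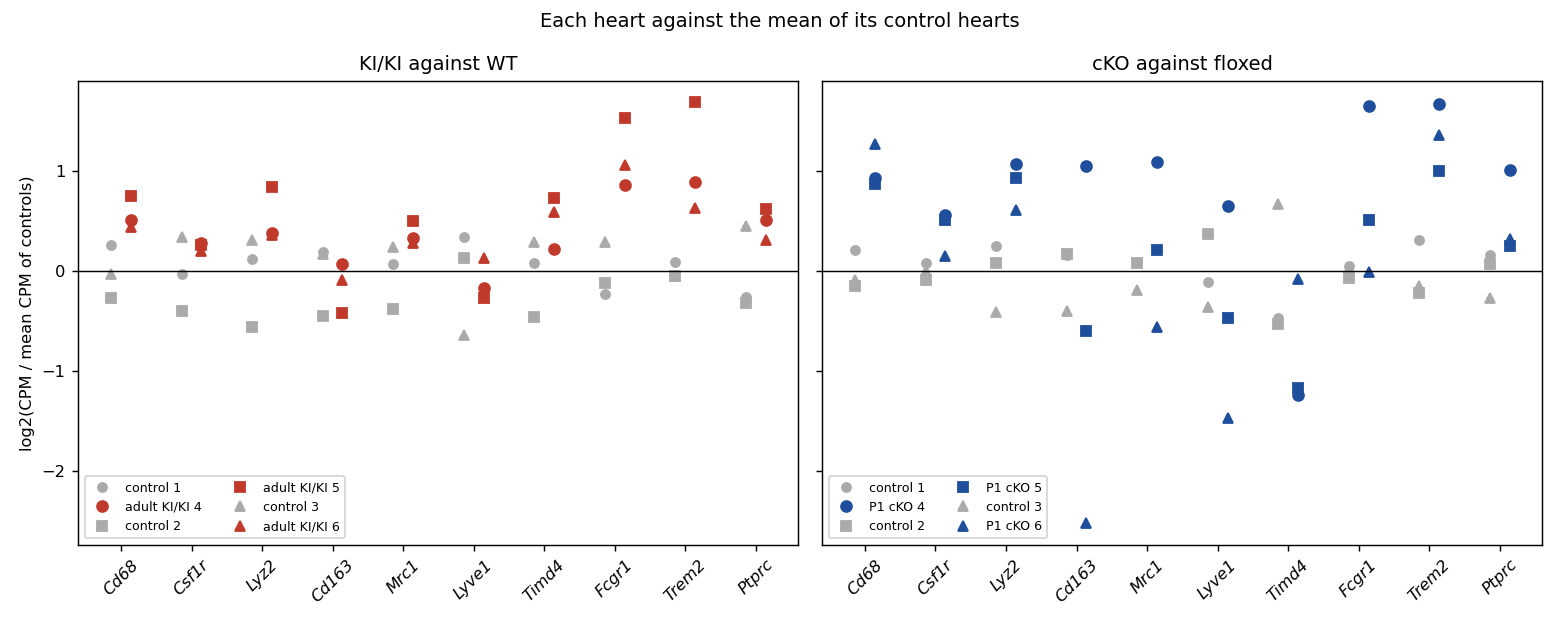
Each heart relative to the mean of its control hearts, as log2(CPM / mean CPM of the 3 controls) on the y axis, with grey points for control hearts and coloured points for KI/KI (left) and cKO hearts (right). Cd163 ranges from 1.05 to -2.53 among cKO hearts, whereas Cd68 ranges from 0.87 to 1.27.

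Within each heart, the resident members Cd163, Mrc1, Lyve1 and Timd4 were set against the recruited monocyte genes Ccr2, Ly6c2, Plac8 and Chil3, as a ratio of summed CPM. The ratio was 39.1, 21.5 and 14.6 in WT and 19.4, 13.4 and 20.8 in KI/KI hearts. It was 18.0, 24.1 and 22.4 in floxed and 22.1, 25.6 and 11.4 in cKO hearts, and the groups overlapped at both ages. Ccr2 over Csf1r was 0.0379, 0.0591 and 0.0847 in WT hearts and 0.102, 0.119 and 0.0775 in KI/KI hearts, which also overlapped through WT replicate 3.

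The members were also set against Cd68, a marker of macrophages of either origin. Cd68 itself had a fitted log2 fold change of 0.58 in KI/KI hearts, not called by edgeR, and of 1.03 in cKO hearts. Cd163 had -0.13 and -0.01. A lower ratio to Cd68 therefore need not mean a lower level of the other marker. Relative to Cd68 in the same heart, Cd163 counts were 3.69, 3.42 and 4.43 in WT hearts and 2.85, 1.71 and 2.67 in KI/KI hearts, without overlap. The floxed ratios were 1.60, 2.07 and 1.34, and those of cKO replicates 4, 5 and 6 were 1.81, 0.598 and 0.120. The Lyve1 to Cd68 ratio was 5.34, 6.66 and 3.32 in WT hearts and 3.16, 2.48 and 4.05 in KI/KI hearts, which overlapped. In 2-sided exact permutation tests, 3 hearts against 3 cannot give a p below 0.1, and over 16 comparisons of ratios the lowest adjusted p was 0.32. Cd163 relative to Cd68 reached that smallest value, exact p = 0.1, in KI/KI hearts, with a mean log2 difference of -0.70, and had an exact p = 0.3 in cKO hearts. An exact p of 0.1 was also reached in KI/KI hearts by Fcgr1 over Cd68 (mean log2 difference 0.58) and Cd163 over Csf1r (-0.40). In cKO hearts it was reached by Timd4 over Cd68 (-1.75) and Csf1r over Cd68 (-0.62). The Timd4 ratio at P1 rested on 6 to 21 counts of Timd4 in a library, too few for the edgeR test. The ratio of Timd4 to Cd68 in KI/KI hearts differed by -0.04 on the log2 scale (exact p = 0.8).

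**Figure D4:**
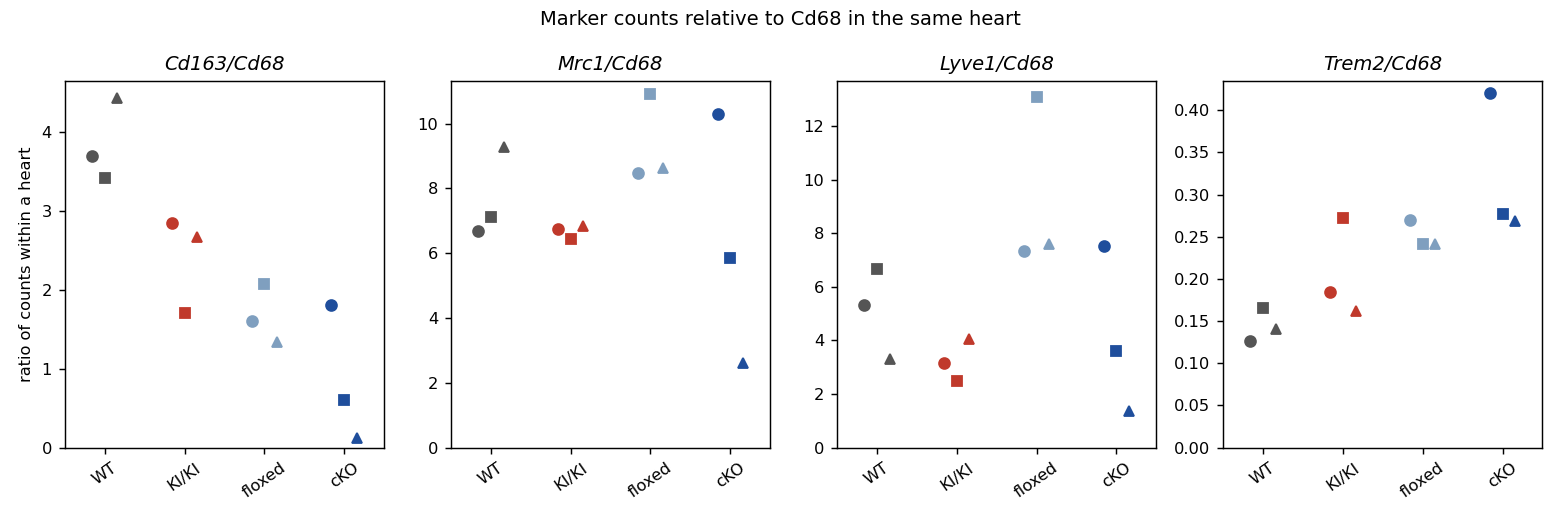
Ratio of the counts of Cd163, Mrc1, Lyve1 and Trem2 to those of Cd68 in the same heart (y axis) for the 4 groups, with 1 point per heart and the same shapes for replicates. The Cd163 ratio is below 3 in each KI/KI heart and above 3.4 in each WT heart. Cd68 itself had fitted log2 fold changes of 0.58 in KI/KI and 1.03 in cKO hearts.

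The wider list of resident macrophage genes had no edgeR call in KI/KI hearts among 12 tested (1 with DESeq2), where edgeR called 0% of all genes tested. In 5 of the 12 the KI/KI hearts lay above the WT hearts without overlap, and in 0 below, where 11.4% and 10.4% of genes did. In cKO hearts the list had 1 call among 9 tested, the scavenger receptor Stab1, where 9.32% of all genes tested were called higher. Stab1 rose from 87.4, 90.8 and 102 CPM in floxed hearts to 140, 147 and 126 CPM in cKO hearts, a log2 fold change of 0.56 ± 0.10 (SE, edgeR adjusted p = 0.0142). The list had no call without floxed replicate 1, floxed replicate 2 or cKO replicate 5, and 4 without cKO replicate 6. Folr2, a folate receptor of resident macrophages, lay lower in each cKO heart (3.03, 2.85 and 2.24 CPM) than in each floxed heart (3.70, 3.69 and 3.67 CPM) and higher in each KI/KI heart (14.6, 14.9 and 13.9 CPM) than in each WT heart (11.6, 8.88 and 13.2 CPM). Neither difference passed, with edgeR adjusted p of 0.134 and 0.305. Siglec1, the sialic acid receptor of tissue macrophages, was at 7.65, 4.3 and 6.94 CPM in WT and at 13.0, 21.2 and 15.3 CPM in KI/KI hearts, without overlap, at a log2 fold change of 1.40 ± 0.26 (SE, edgeR adjusted p = 0.193). The list's median log2 fold change was 0.24 in KI/KI and 0.22 in cKO hearts, where that of all genes tested was 0.00 in both.

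Recruited monocyte genes were not called by edgeR in either mutant, among 7 and 8 genes tested. Over all genes tested, 0% were called in KI/KI hearts, and 9.32% higher and 7.57% lower in cKO hearts. The median log2 fold change of the monocyte genes was 0.54 in KI/KI hearts, with 5 of 7 above 0, and 0.17 in cKO hearts. Ms4a4c alone of the 7 had KI/KI hearts above WT hearts without overlap, where 11.4% of all genes tested did. It was at 0.357 to 0.677 against 0.183 to 0.326 CPM, with a log2 fold change of 1.15 ± 0.40 (SE, edgeR adjusted p = 0.267). Ms4a4c passed the filter on low counts through the KI/KI hearts. Ccr2, the chemokine receptor that brings monocytes into tissue, was at 2.28, 2.75 and 6.58 CPM in WT hearts and at 7.63, 8.78 and 5.48 CPM in KI/KI hearts, with overlap through WT replicate 3. The log2 fold change of Ccr2 was 0.90 ± 0.40 (SE, edgeR adjusted p = 0.328). In P1 hearts it was at 3.02, 2.37 and 2.24 CPM in the floxed group and at 4.27, 1.77 and 2.33 CPM in the cKO group. Ly6c2 ran from 1.77 to 2.96 CPM in WT and from 0.179 to 1.96 CPM in KI/KI hearts. It was at most 0.259 CPM at P1. Plac8 reached no more than 1.92 CPM and Chil3 no more than 0.998 CPM in any heart, so that changes in these monocyte genes would rest on few counts.

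Of 15 other genes expressed by macrophages in general, 8 were called higher in cKO hearts and none lower. Over all genes tested, 9.32% were called higher and 7.57% lower. The median log2 fold change of the 15 was 1.01. The smallest p belonged to Ms4a7, Laptm5, Mpeg1 and Adgre1. Adgre1, which encodes the F4/80 antigen, rose from 5.53, 4.8 and 6.20 CPM to 11.3, 10.4 and 14.0 CPM, a log2 fold change of 1.10 ± 0.16 (SE, edgeR adjusted p = 0.00887). Mpeg1, a pore-forming protein of phagocytes, rose from 12 to 17.0 CPM in floxed hearts to 31.9 to 46.6 CPM in cKO hearts (log2 fold change 1.51, edgeR adjusted p = 0.0073). Ms4a7 and Laptm5 had log2 fold changes of 1.64 and 1.01. Cx3cr1, the fractalkine receptor, was at 9.64, 6.08 and 11.3 CPM in the floxed hearts and at 7.03, 16 and 19.6 CPM in cKO replicates 4, 5 and 6. Its highest level was thus in the heart where Cd163, Mrc1 and Lyve1 were lowest. The count of 8 was 2 without floxed replicate 1, 4 without floxed replicate 2, floxed replicate 3 or cKO replicate 5, and 10 without cKO replicate 6. It was 11 with DESeq2. In KI/KI hearts 14 of the 15 had a fitted difference above 0, as did 7376 of the 14592 genes tested, and their median was 0.52. None was called by edgeR, which called 0% of genes, and 4 were by DESeq2, which called 2.16% of genes higher. In 9 the groups did not overlap, all with KI/KI higher, against 11.4% of genes.

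The CSF1 receptor axis, the ligands and transcription factors that maintain the lineage, had 4 of 12 genes called higher in cKO hearts. They were Csf1, Cebpa, Inpp5d and Spi1, and the share over all genes tested was 9.32%. Csf1, the main ligand of Csf1r, rose from 20.6, 18.8 and 22.6 CPM in floxed hearts to 36.1, 33.0 and 27.5 CPM in cKO hearts (log2 fold change 0.64 ± 0.14 SE, edgeR adjusted p = 0.0241). Il34, the second ligand, was at 0.564, 0.847 and 0.576 CPM in floxed and at 1.82, 1.63 and 0.729 CPM in cKO hearts, with an edgeR adjusted p of 0.106. Spi1, which encodes PU.1, rose from 2.23, 1.93 and 1.88 CPM to 4.07, 3.17 and 3.01 CPM (log2 fold change 0.77 ± 0.21 SE, edgeR adjusted p = 0.0457). The list had no call without floxed replicate 1, floxed replicate 2 or cKO replicate 5, 1 without floxed replicate 3 or cKO replicate 4, and 6 without cKO replicate 6. Limma-voom called 2. None of the 12 was called in KI/KI hearts, where 0% of all genes tested were. Csf1 had a log2 fold change of 0.22 there and Spi1 of 0.25.

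Trem2 signals through the adaptor Tyrobp, and both rose in cKO hearts. Tyrobp went from 3.70, 3.39 and 2.75 CPM to 9.66, 6.19 and 6.46 CPM (log2 fold change 1.19 ± 0.24 SE, edgeR adjusted p = 0.0218). Of the 14 genes of the TREM2 axis and lipid-associated list, 4 were called higher in cKO hearts, where 9.32% of all genes tested were. They were Tyrobp, Lgals3 and the lysosomal or endosomal genes Ctsb and Cd63, which many cell types express. Lgals3, the galectin of activated macrophages, rose from 4.29, 3.95 and 2.58 CPM to 18.8, 12.4 and 9.84 CPM, a log2 fold change of 1.93 ± 0.31 (SE, edgeR adjusted p = 0.0118). The list had no call without floxed replicate 1, 2 without floxed replicate 2 and 6 without cKO replicate 6, and DESeq2 called 7. In KI/KI hearts Lgals3 was at 6.26, 30.8 and 14.6 CPM against 4.63, 2.02 and 2.61 CPM in WT hearts. The groups did not overlap, and the log2 fold change of 2.51 ± 0.62 (SE) had an edgeR adjusted p of 0.214. Each of the 14 genes had a fitted difference above 0 in KI/KI hearts, as did 7376 of the 14592 genes tested. The median of the 14 was 0.31.

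Fcgr1 pairs with the common chain Fcer1g, which was the only gene of 5 in the Fc gamma receptor list to be called in cKO hearts. Calls over all genes tested were 9.32% higher and 7.57% lower. Fcer1g rose from 3.93, 4.0 and 3.52 CPM to 10.2, 6.25 and 5.76 CPM (log2 fold change 0.97 ± 0.26 SE, edgeR adjusted p = 0.0465). The list had 3 calls without cKO replicate 6, none without any other heart, and none with limma-voom. The inhibitory receptor Fcgr2b spread like Fcgr1, at 13.5, 3.92 and 1.80 CPM in cKO replicates 4, 5 and 6 against 2.13 to 3.82 CPM in floxed hearts. Among 10 tested scavenger and lectin receptors, Mrc2 and Clec4n were called higher and Cd36 lower in cKO hearts, and without floxed replicate 1 or 2 none of the 3 was called. Cd36 is also the fatty acid transporter of cardiomyocytes and endothelium, and its level of 1380 to 1470 CPM in floxed hearts was far above that of any macrophage marker.

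Neutrophil genes, which bear on Lyz2, were called in neither mutant, among 3 tested in KI/KI and 7 in cKO hearts. Over all genes tested, 0% were called in KI/KI hearts, and 9.32% higher and 7.57% lower in cKO hearts. Of the 9 neutrophil genes present in the table, the summed level was 32.2, 36.6 and 11.3 CPM in floxed and 17.9, 10.5 and 12.9 CPM in cKO hearts. Ltf alone gave 15.3, 17.4 and 1.45 CPM of the floxed sums. Floxed replicates 1 and 2 also held the highest summed lung genes of the P1 hearts, 28.6 and 44.9 CPM, and the part of lung content in the sums was not tested. S100a8 was at 2.22 to 4.54 CPM in floxed and 2.38 to 3.41 CPM in cKO hearts. Prox1, which marks lymphatic endothelium and is also expressed by cardiomyocytes, fell in cKO hearts by 1.01 on the log2 scale (edgeR adjusted p = 0.00542), while Flt4 rose by 0.45. Prox1 was called with each heart left out, and Flt4 was not called without floxed replicate 1, floxed replicate 2 or cKO replicate 5. Ccl21a was at 0 in each library. The summed B cell genes stayed at or below 5.93 CPM and those of thymocytes at or below 0.522 CPM, and in floxed and cKO hearts those of T and NK cells reached 3.01 CPM, beside Ptprc levels of 5.78 to 14.0 CPM. Cd4, which marks helper T cells and is also found on some macrophages, was the only T cell gene tested at P1 and rose by 1.95 on the log2 scale (edgeR adjusted p = 0.0334), a call absent without any 1 of the floxed hearts or cKO replicate 5. Of 6 cardiomyocyte genes, Pln, Ryr2 and Tnni3 fell in cKO hearts (none called without floxed replicate 1), where 7.57% of all genes tested were called lower. Myh6 and Tnnt2 had log2 fold changes of -0.47 and -0.24 that did not pass, and Actn2 had 0.32, which did not pass either. The summed level of the 6 genes was 24700 to 27800 CPM against 33000 to 38000 CPM in floxed hearts. The part of this in the macrophage values was not tested.

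Adult WT hearts had higher levels than P1 floxed hearts for 7 of the 10 markers, where 31.8% of the 15183 genes tested were called higher and 33.4% lower. The 7 were Cd68, Csf1r, Lyz2, Cd163, Mrc1, Timd4 and Ptprc, and none was called lower. Age, mouse line and the floxed allele differ together here and cannot be told apart. Timd4 had the largest difference, with 98, 71 and 134 counts in WT libraries and 9, 9 and 21 counts in floxed libraries, or 3.15, 2.17 and 3.65 CPM against 0.203, 0.196 and 0.448 CPM. Its log2 fold change was 3.38 ± 0.37 (SE, edgeR adjusted p = 1.0e-04), in a gene that passed the filter on low counts through its adult hearts. Lyz2 differed by 2.44 on the log2 scale (standard error 0.27, edgeR adjusted p = 2.0e-04) and Cd163 by 2.20 ± 0.22 (SE, edgeR adjusted p = 7.3e-05). Csf1r, Cd68, Ptprc and Mrc1 had log2 fold changes of 1.31, 0.98, 0.90 and 0.71.

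Not every marker followed. Lyve1 was at 28.3 to 55.6 CPM in adult WT and at 31.4 to 52.0 CPM in P1 floxed hearts, with a log2 fold change of 0.11 ± 0.27 (SE). Trem2 had 0.15 ± 0.24 (SE). Fcgr1 was lower in each adult WT heart, at 1.67 to 2.39 CPM against 2.48 to 2.69 CPM, with a log2 fold change of -0.40 ± 0.20 (SE, edgeR adjusted p = 0.103). Scaling by total counts in place of TMM shifted the median of all genes by -0.402 on the log2 scale in this comparison. Under it the higher calls were 5, without Mrc1 and Ptprc, Lyve1 and Trem2 turned to -0.30 and -0.25, and Fcgr1 was called lower at -0.80. Over all genes the calls were then 2801 higher and 8202 lower, against 4824 and 5074.

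Among other resident macrophage genes 9 of 12 tested were called higher in adult WT hearts and none lower, against 31.8% and 33.4% of genes. Their median log2 fold change was 1.43 where all genes tested had -0.04. Folr2 was at 11.6, 8.88 and 13.2 CPM against 3.70, 3.69 and 3.67 CPM (log2 fold change 1.60, edgeR adjusted p = 9.0e-05). Mgl2, a lectin, was at 9.13 to 13.7 CPM in adult and at 0.0853 to 0.203 CPM in P1 hearts, and like Ccl24 and Cd209f it passed the filter through the adult hearts. Recruited monocyte genes were called in both directions. Ly6c2, which passed the filter through the adult hearts, was higher in adults (log2 fold change 4.55, edgeR adjusted p = 3.5e-05). Plac8, which passed it through the P1 hearts, was lower in adults (log2 fold change -1.45, edgeR adjusted p = 0.0495), a call absent without floxed replicate 1 or 2. The ligands Csf1 and Il34 were higher in adults too, by 1.89 and 2.57 on the log2 scale. Of 6 neutrophil genes tested, 4 were lower in adults, where 33.4% of genes tested were. All 4 passed the filter through the P1 hearts, and S100a9 was at 0.163 to 0.804 CPM against 3.92 to 6.59 CPM.

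The change in KI/KI hearts minus that in cKO hearts was tested in 1 fit of the 12 hearts. None of the 10 markers was called by edgeR, DESeq2 or limma-voom, where edgeR called 2.43% of 15729 genes (199 higher and 184 lower in KI/KI, 497 and 104 with total counts only, and 327 and 136 with upper-quartile scaling). At an unadjusted p under 0.05 there were also 0 markers, against 20.0% of genes. The differences ran from -0.46 ± 0.24 (SE) for Cd68 to 1.29 ± 0.63 (SE) for Timd4 on the log2 scale. Those of Cd163, Lyve1 and Fcgr1 had standard errors of 0.78, 0.60 and 0.55. The sign of the difference was not resolved for any of the 10 markers.

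Across the 12 hearts, the genes outside the markers whose deviations from their group means followed the mean of the 10 markers most closely were Milr1, Ctss, Cadps2, Mab21l2 and Alox5ap, with Pearson's r from 0.96 to 0.981. Mrc1 itself had 0.985 and Cd68 0.0252 by that measure, and both are part of the mean they were compared with. The markers deviated most among cKO hearts, where their median coefficient of variation was 39.9%. It was 24.1% in WT, 15.8% in KI/KI and 17.9% in floxed hearts. By levels, which also reflect the difference between ages, the 3 closest were Alox5ap, Eps15 and Sepp1, with r from 0.98 to 0.993. Points within a group share age and genotype, and the values are descriptions over 12 hearts.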

How the data were processed

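Whole-heart poly(A) RNA was sequenced as single-end reads on a NextSeq500, with 3 mice in each of 4 groups. The authors trimmed reads with Trim Galore, estimated library quality with Bowtie 2.3.4.3, aligned to mm10 with STAR 2.7.2b, sorted with SAMtools 1.9, and used HTSeq to assign them to genes. The deposited counts are not normalized. The setting for strand is not given in the sources used here. The table lists 24062 symbols, 3623 of them at 0 in each library. No replicate pair was identical or within sampling noise.

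Groups came from the labels. The main test was that of edgeR 4.0.16 in R 4.3.3 (TMM, filterByExpr, robust quasi-likelihood test, Benjamini-Hochberg adjustment over the genes tested), each comparison on its own 6 libraries and the difference between models on 12. A gene was called at an adjusted p under 0.05. Standard errors came from the fold change and the test statistic. DESeq2 1.42.0, limma-voom (limma 3.58.1), other scalings, filters and fits, a fold change above 2 and each library left out were alternatives, and legacy dispersions were added after seeing the data. The scripts were tested on simulated counts.

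RPKM used the longest coding transcript of each gene in GENCODE vM21 (GRCm38). Upstream sequences came from RefSeq. Genes like the markers were ranked on log2(CPM + 1). Part of that ranking is not reported here. The markers, gene lists and tests were chosen with earlier results of these data known. Named genes were the 10 markers, up to 4 called genes per list with the smallest p, and a set of receptors, ligands and cell type markers. Other genes named were chosen after their values were seen.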

Additional observations from a re-analysis of the deposited data

Results flagged for a closer look

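Timd4 moved in opposite directions in the mutants relative to the mean of the control hearts. Each KI/KI heart lay above the WT mean, with a log2 ratio of group means of 0.53, and each cKO heart lay below the floxed mean, at -0.72. The cKO libraries held 6, 6 and 11 counts of Timd4 and the floxed libraries 9, 9 and 21, and single hearts overlapped within both ages. The difference between models in the fit of 12 hearts was 1.29 ± 0.63 (SE) on the log2 scale and was not called, at an edgeR adjusted p of 0.28. With so few counts at P1, a difference between cKO and floxed hearts was not detectable at this depth.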

How the results depend on the processing

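Of 682 log2 fold changes of the 10 markers recomputed under another setting, 627 kept their direction and their side of the threshold, 34 changed sign, 13 were no longer called and 8 became called. No marker was called higher in KI/KI hearts by edgeR, and 3 were with DESeq2. Leaving out 1 heart moved the number called higher in cKO hearts from 3 to between 0 and 5. In adult WT against P1 floxed hearts, 4 of the 7 also had a fitted fold change above 2, a cutoff on the estimate. Mrc1 was not called there in 1 fit of all 12 libraries (edgeR adjusted p = 0.0698). In the same comparison 1 marker, Fcgr1, was called lower with total counts only, or 0 to 1 with a heart left out (without WT replicate 3). With total counts only, Lyve1 and Trem2 turned to -0.30 and -0.25 there. With a heart left out, Lyve1 ran from -0.08 to 0.37 there, from -0.32 to 0.11 in KI/KI and from -0.89 to 0.20 in cKO hearts, where Cd163 ran from -1.24 to 0.46 and Mrc1 from -0.13 to 0.72. In the difference between models, the ranges were -0.34 to 0.03 for Csf1r, -0.60 to 1.10 for Cd163, -0.35 to 0.49 for Mrc1, -0.29 to 0.79 for Lyve1, -0.02 to 0.89 for Fcgr1 and -0.24 to 0.20 for Ptprc. There limma-voom gave 0.45 for Cd163 and 0.13 for Mrc1, total counts only gave 0.02, 0.11 and 0.04 for Cd163, Mrc1 and Ptprc, and upper-quartile scaling gave 0.03 for Mrc1. Causes were not tested. Over all genes, KI/KI calls were 0 by edgeR, 529 by DESeq2, 48 in the fit of 12 libraries and 56 without KI/KI replicate 4. In cKO hearts 4113 genes were called in the fit of 12 libraries against 2587. For the difference between models 383 calls became 1343 with DESeq2, 601 with total counts only and 51 to 924 with a heart left out. WT and floxed hearts share replicate numbers, and same-numbered hearts deviated with r from -0.392 to -0.134, so the numbers pair nothing. With the replicate number as a block, 7 markers were called higher as before, and 9218 genes against 9898. With 3 hearts a group, and 6 to 21 counts of Timd4 in P1 libraries, small differences in the low markers were out of reach.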
